A study of Mus musculus with 6 samples.

Results

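The genes described here encode protein parts of the spliceosome and relatives of them that share their gene symbols: the Sm and LSm proteins, some of which work in other RNA particles, the proteins that belong to single small nuclear ribonucleoproteins (snRNPs), the splicing factors SF3a and SF3b, and the serine- and arginine-rich (SR) splicing factors. They were chosen by gene symbol, with earlier results of these data known. Taken were all symbols beginning with Snrpa to Snrpg, Snrnp, Lsm, Sf3a, Sf3b or Srsf followed by a number where the family has one. Snrpn was included and pseudogene symbols were left out. This gave 50 of the 26216 gene symbols in the files, and 48 of them were among the 13108 symbols in the upper 50% by mean value that were tested. The remaining members, Snrpn and Srsf12, were too weakly expressed for a test.

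Pre-mRNA splicing is carried out by the U1, U2, U4, U5 and U6 snRNPs, each built from a short RNA, a ring of small Sm or LSm proteins and proteins of its own. SF3a and SF3b belong to the U2 snRNP and hold it at the branch point of the intron, while SR proteins bind exons and help to recruit the snRNPs to splice sites. In blood formation these genes are known above all because SF3B1 and SRSF2 are often mutated in human myelodysplastic syndromes.

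RNA was sequenced from long-term and short-term hematopoietic stem cells (LT/ST-HSCs) of mice, to ask how the loss of the lymphotoxin-β receptor, a member of the TNF receptor superfamily, changes gene expression in these cells. Lethally irradiated Ly5.1/Ly5.2 recipients had received a mixture of bone marrow LSKs (lineage-negative, Sca-1+ and c-kit+ cells) of both genotypes, and donor cells were sorted from the bone marrow of these mixed chimeras 6 weeks later by lineage, Annexin-V, Sca-1, c-kit, CD150 and CD48 staining. The cells of 6 chimeras were pooled to 3 samples of each genotype, so that p-values measure the spread between these pools. Ltbr-/- donors (CD45.2) lacked the receptor constitutively and were 13, 10 and 10 to 13 weeks old in replicates 1 to 3, whereas Ly5.1 donors (CD45.1) were Ltbr-proficient and 7 to 13 weeks old in all 3 replicates. Genotype, CD45 allele and, in part, donor age therefore changed together and cannot be told apart. The recipients' own cells carry both CD45 forms.

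The value deposited for each gene is a signal, the power of 2 of a regularized log, which scales samples to each other and pulls weakly expressed genes towards their mean. Differences are given as log2 fold changes of this signal, Ltbr-/- against Ly5.1, with limma across all tested genes and Benjamini-Hochberg adjusted p-values. Genes with an adjusted p under 0.05 are called higher or lower, and a fold of at least 1.5 is stated where it was reached. Counts at an unadjusted p under 0.05 are to be read beside those of all 13108 tested genes. Of these, 2060 were higher and 1495 lower at that level (limma). Ltbr itself had values of 24.2, 26.4 and 23.1 in Ltbr-/- and of 564, 549 and 522 in Ly5.1 samples, a log2 fold change of −4.47. The library labels and the targeted gene thus matched. Of 10 HSC markers, 0 were called higher and 2 lower (limma; 4 had an unadjusted p under 0.05), and their summed value was 13369 to 13672 in Ltbr-/- and 15229 to 15628 in Ly5.1 samples. Neutrophil markers fell in 8 of 8 genes, with a summed value of 42902 to 43418 against 56241 to 60671. Summed mast cell and basophil markers were 7505 to 8076 against 4114 to 4700, with 2 of 6 genes higher and 1 lower. Cma1 alone had a mean of 5470 against 2195, and the median log2 fold change of that list was −0.07. Erythroid markers summed to 3742 to 4080 against 2829 to 3071, with 1 of 6 genes higher and 0 lower (limma; 1 at an unadjusted p under 0.05). The part of these marker levels in the results below was not tested, and in bulk samples fewer cells of a type and less RNA per cell cannot be told apart.

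Among the 48 tested members, 8 were higher and 3 were lower in Ltbr-/- LT/ST-HSCs, and 37 were not called. Without limma's moderation of the variances 0 were called (12 at an unadjusted p under 0.05), and Snrpd2 had an adjusted p of 0.0583. The counts were 5 higher and 0 lower without Ly5.1 replicate 1, 5 and 2 without Ly5.1 replicate 2, 6 and 0 without Ltbr-/- replicate 3, 7 and 1 without Ltbr-/- replicate 1 and 8 and 1 without Ltbr-/- replicate 2. Higher calls made up 16.7% of the members and 10.6% of all tested genes, and lower calls 6.25% of the members and 4.18% of all tested genes. A fold of at least 1.5 was reached by 1 member, Snrpd2, which encodes the ring protein Sm D2; among all tested genes 2.72% were higher and 0.061% lower by that rule. The median log2 fold change of the members was 0.03, against −0.01 over all tested genes, and 26 of 48 lay above 0. All 3 Ltbr-/- values lay above all 3 Ly5.1 values in 13 members, and below them in 6. Over all tested genes these shares were 17% and 13.5%. The higher calls were Snrpd2, Snrpb, Snrpf and Snrpg of the Sm ring, Snrpb2, Snrpc and Snrpa of the U1 and U2 snRNPs, and Srsf9. The lower calls were Srsf2, Srsf6 and Lsm14a.

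**Figure D1:**
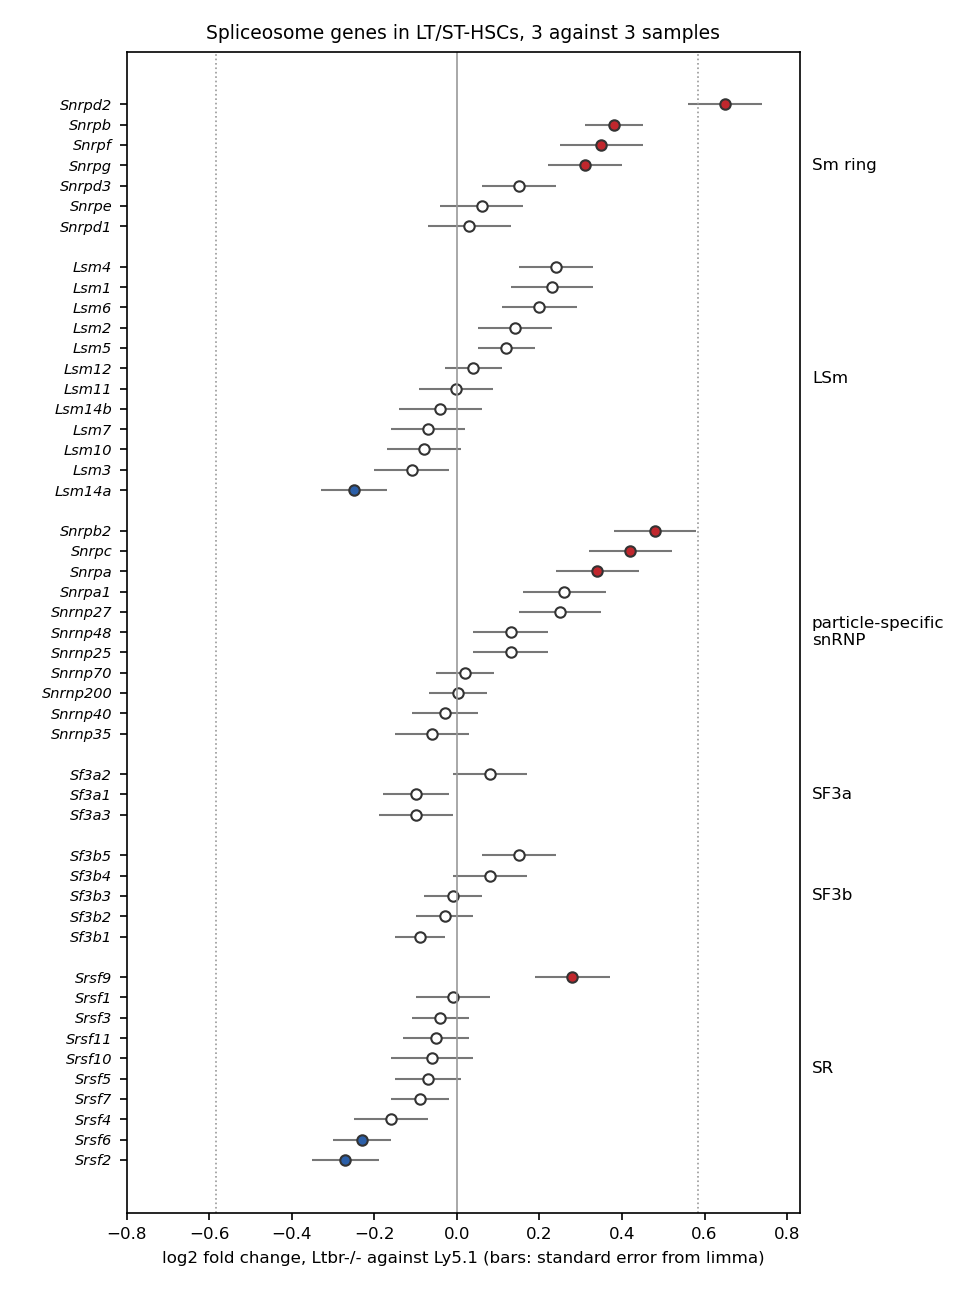
Log2 fold change, Ltbr-/- against Ly5.1, of the 48 tested members by family, on the scale of the deposited signal. Points give the estimate and bars the standard error from limma with 3 against 3 samples; filled points have an adjusted p under 0.05 (red higher, blue lower), and dotted lines mark a fold of 1.5. Filled points on the right belong to the Sm ring, to particle-specific snRNP genes and to Srsf9, and Snrpd2 alone lies beyond a dotted line. When samples were centred on ribosomal protein genes every member lay left of 0. Of all 13108 tested genes 12830 were then called, 19 of them higher.

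These directions hold on the scale on which the samples were deposited. Ribosomal protein genes were far higher in Ltbr-/- LT/ST-HSCs, with 77 of 80 called higher and a median log2 fold change of 0.79. Centring each sample on the median of those genes shifts all genes of that sample alike. It moved the median of all tested genes to −0.89, and 47 members were then called lower. Of all 13108 tested genes 12830 were called under this shift, 19 of them higher, so the member count is no trait of the members. Relative to that shift, the order of the members is the same as on the deposited scale.

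The Sm ring is the group of proteins that all spliceosomal snRNAs except U6 and its minor counterpart carry. Of its 7 tested genes, 4 were higher and 0 lower in Ltbr-/- cells (limma, with 4 and 0 at an unadjusted p under 0.05). The share called higher was 57.1%, against 10.6% of all tested genes. The median log2 fold change was 0.31, and it fell below 0 under centring on ribosomal protein genes. Snrpd2 lies at chr7:19149445-19152734 (GRCm38.p6). Its values were 2709, 2544 and 2987 in Ltbr-/- and of 1619, 1694 and 1931 in Ly5.1 samples. The lowest Ltbr-/- value thus exceeded the highest Ly5.1 value by a wide margin. Its mean was 2747 ± 224 (SD, n = 3) against 1748 ± 163 (SD, n = 3), and the log2 fold change was 0.65 (SE, the standard error, 0.09, fold 1.57, limma adjusted p = 2.02e-07). The exact two-sided permutation test gave p = 0.1 for Snrpd2 and for each of the other 10 called members, the smallest p that 3 against 3 samples allow, so that this test cannot reach 0.05.

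Snrpb encodes the ring proteins Sm B and B′ and had the highest values of the family. They were 4895, 4768 and 5187 in Ltbr-/- and 3945, 3535 and 3944 in Ly5.1 samples, and the groups did not overlap. Its log2 fold change was 0.38 (SE 0.07, limma adjusted p = 2.35e-04). Snrpf, for Sm F, had values of 363, 406 and 417 against 338, 283 and 311, with a log2 fold change of 0.35 (SE 0.10, limma adjusted p = 0.0108). Snrpg, for Sm G, had 585, 622 and 604 against 472, 450 and 542, with a log2 fold change of 0.31 (SE 0.09, limma adjusted p = 0.0202). In both genes the groups lay apart, but the relative gap was smaller than in Snrpd2 and Snrpb. Snrpd2 and Snrpb kept an adjusted p under 0.05 whichever sample was left out. The call of Snrpf was lost without Ltbr-/- replicate 3 or Ly5.1 replicate 2 (limma adjusted p up to 0.0835), and that of Snrpg without Ltbr-/- replicate 2 or 3 or Ly5.1 replicate 1 or 2 (up to 0.111).

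The other 3 tested ring genes were not called. Snrpd1, for Sm D1, had values of 933, 706 and 811 in Ltbr-/- and 713, 812 and 873 in Ly5.1 samples, which overlapped, and a log2 fold change of 0.03 (limma adjusted p = 0.902). It lies next to Sm D2 in the assembled ring. Snrpe (Sm E) stood at 0.06 and Snrpd3 (Sm D3) at 0.15. Snrpn, the imprinted neuronal relative of Snrpb, was listed at 1.03 to 1.05 in all 6 samples, at the floor of the deposited scale.

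**Figure D2:**
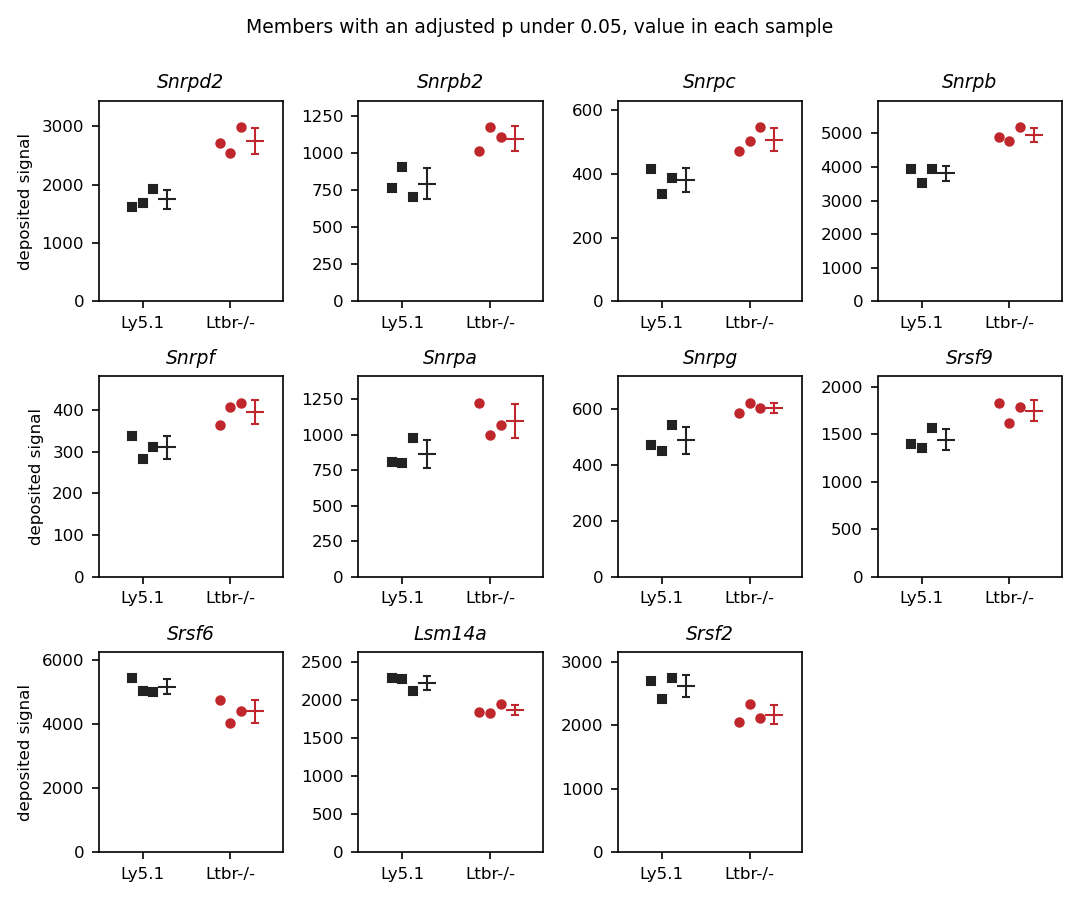
Deposited signal (linear axis from 0) of the 11 called members in each Ly5.1 sample (black squares) and each Ltbr-/- sample (red circles). The bars give the mean ± SD of 3 samples. In all 11 panels the 3 values of one genotype lie on one side of the other 3. These genes were chosen by their adjusted p in the same samples, so this adds nothing to the calls. Among all tested genes, called or not, 17% lay apart with Ltbr-/- higher and 13.5% with Ltbr-/- lower.

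Another family holds the proteins that belong to single snRNPs. Of its 11 tested genes 3 were higher and 0 lower (limma, with 5 and 0 at an unadjusted p under 0.05). The share called higher was 27.3%, against 10.6% of all tested genes. The median log2 fold change was 0.13, below 0 under centring on ribosomal protein genes. Snrpb2, at chr2:143063069-143072052, encodes the U2 protein B″, which binds U2 RNA together with the product of Snrpa1. Its values were 1009, 1172 and 1104 in Ltbr-/- and 760, 907 and 705 in Ly5.1 samples. Every Ltbr-/- value lay above the highest Ly5.1 value, and the log2 fold change was 0.48 (SE 0.10, limma adjusted p = 3.23e-04). Snrpa1 itself had values of 1414, 1919 and 1617 against 1303, 1525 and 1292. Here the groups overlapped, and its log2 fold change of 0.26 was not called (limma adjusted p = 0.0658).

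In the U1 snRNP, which recognises the start of the intron, 2 of the 3 tested genes were higher, beside 10.6% of all tested genes. Snrpc, for the zinc finger protein U1-C, had 472, 503 and 546 in Ltbr-/- and 415, 338 and 388 in Ly5.1 samples, with a log2 fold change of 0.42 (SE 0.10, limma adjusted p = 0.00196). Snrpa, for the RNA-binding protein U1-A, had 1225, 996 and 1067 against 811, 803 and 977, with a log2 fold change of 0.34 (SE 0.10, limma adjusted p = 0.0107). The Snrpa groups were separated by a narrow gap between Ltbr-/- replicate 2 and Ly5.1 replicate 3. Snrnp70 encodes the third U1 protein, U1-70K, and had overlapping values of 6922, 6810 and 7600 against 6960, 6827 and 7177. Its log2 fold change was 0.02 (limma adjusted p = 0.871). With quantile normalization it was −0.22, and Snrnp70 was called lower (limma adjusted p = 0.0116). Snrpb2 and Snrpc were called whichever sample was left out, whereas the Snrpa call was lost without Ltbr-/- replicate 1 or Ly5.1 replicate 1 or 2 (limma adjusted p up to 0.108).

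The remaining particle-specific genes were not called. Snrnp27, of the tri-snRNP of U4, U5 and U6, had values of 737, 599 and 544 in Ltbr-/- and 500, 525 and 548 in Ly5.1 samples. Ltbr-/- replicate 1 stood highest and Ltbr-/- replicate 3 lay within the Ly5.1 range, and the log2 fold change of 0.25 was not called (limma adjusted p = 0.0967). Snrnp200, for the helicase that unwinds U4 from U6, had a mean of 5552 ± 224 (SD, n = 3) in the samples of Ltbr-/- cells, against 5541 ± 268 (SD, n = 3). Snrnp40, a U5 protein, stood at −0.03. The U11 and U12 proteins of the minor spliceosome ranged from −0.06 for Snrnp35, the lowest of the family, to 0.13 for Snrnp25 and Snrnp48.

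LSm proteins are relatives of the Sm proteins, and rings of them bind U6 RNA in the nucleus or deadenylated mRNA in the cytoplasm. All 12 LSm genes were tested, and 0 were higher and 1 lower (limma, with 3 and 1 at an unadjusted p under 0.05). Among all tested genes 10.6% were called higher and 4.18% lower. The median of the LSm genes was 0.02 on the log2 scale. The ring genes Lsm1 to Lsm7 had a median of 0.14, below 0 under centring on ribosomal protein genes, with 0 of 7 called (3 at an unadjusted p under 0.05). Lsm4 had the highest log2 fold change of the family. Its values were 1114, 997 and 1171 in Ltbr-/- and 896, 951 and 933 in Ly5.1 samples, which did not overlap, and its log2 fold change of 0.24 was not called (limma adjusted p = 0.0686). Without Ltbr-/- replicate 2 it was called (limma adjusted p = 0.0427). Lsm1, of the cytoplasmic ring only, stood at 0.23 and Lsm6 at 0.20. On the other side of 0 were Lsm7 at −0.07 and Lsm3 at −0.11. Lsm8, of the nuclear ring only, was not analysed here.

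Lsm14a encodes a protein of cytoplasmic processing bodies that takes part in the silencing of mRNAs, and is no part of the snRNPs. At chr7:34344144-34390026, it had values of 1850, 1832 and 1951 in Ltbr-/- and 2292, 2278 and 2127 in Ly5.1 samples. Its log2 fold change was −0.25 (SE 0.08, limma adjusted p = 0.0315), and the groups did not overlap. It kept its call only without Ly5.1 replicate 3, and the adjusted p without any of the other samples was up to 0.118. Its paralog Lsm14b had overlapping values and stood at −0.04. Lsm10 and Lsm11, of the U7 snRNP that cuts histone pre-mRNAs, had log2 fold changes of −0.08 and −0.0015.

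Of the 3 SF3a and 5 SF3b genes tested under these symbols, 0 were called in either direction by limma (0 at an unadjusted p under 0.05). Among all tested genes 10.6% were called higher and 4.18% lower. The log2 fold changes of these SF3 genes ran from −0.10 to 0.15 with a median of −0.02. Sf3b1, for the large subunit that embraces the branch point helix, had the highest values, 9049, 8855 and 9084 in Ltbr-/- and 9718, 9882 and 9107 in Ly5.1 samples. All Ltbr-/- values lay below the lowest Ly5.1 value, by a small margin, and its log2 fold change was −0.09 (SE 0.06, limma adjusted p = 0.401). Sf3b5, for a small subunit, lay highest, with 589, 559 and 640 against 542, 526 and 543 and a log2 fold change of 0.15 (limma adjusted p = 0.303). In SF3a, which bridges SF3b and the rest of the U2 snRNP, Sf3a1 stood at −0.10 with 2790, 2698 and 2875 against 3001, 2886 and 3059. Sf3a2 stood at 0.08 with overlapping values. Quantile normalization moved Sf3b1 to −0.38 (limma adjusted p = 2.34e-05), Sf3b2 to −0.30 and Sf3b3 to −0.23, all called.

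Sf3b6, for the SF3b subunit p14 at the branch point adenosine, is listed in the files under an older name, 0610009D07Rik, and is therefore not a member by symbol. Its values were 1644, 1743 and 1607 in Ltbr-/- and 1151, 1154 and 1490 in Ly5.1 samples. These groups lay apart, with Ly5.1 replicate 3 closest to the Ltbr-/- samples, and the log2 fold change was 0.41 (SE 0.09, limma adjusted p = 0.00161). It kept its call whichever sample was left out (limma adjusted p up to 0.0214) and stood at −0.47 under centring on ribosomal protein genes.

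SR proteins carry RNA recognition motifs and a tail rich in serine and arginine, and guide the choice of splice sites. Of 10 tested genes 1 was higher (10%, against 10.6% of all tested genes) and 2 were lower (20%, against 4.18%). A log2 fold change above 0 was found in 1 of 10, and the median was −0.06. Srsf9, at chr5:115327163-115333843, was the gene above 0. Its values were 1832, 1621 and 1781 in Ltbr-/- and 1401, 1356 and 1569 in Ly5.1 samples, which lay close but did not overlap, and its log2 fold change was 0.28 (SE 0.09, limma adjusted p = 0.0253). Srsf2, at chr11:116849897-116853675, binds exonic enhancers and had 2055, 2334 and 2112 against 2697, 2416 and 2739. Ltbr-/- replicate 2 and Ly5.1 replicate 2 came closest to each other, and the log2 fold change was −0.27 (SE 0.08, limma adjusted p = 0.0199). Srsf6, at chr2:162931508-162937121, had 4762, 4042 and 4391 against 5429, 5028 and 5012, and a log2 fold change of −0.23 (SE 0.07, limma adjusted p = 0.0317). All Ltbr-/- values lay below all Ly5.1 values in both genes.

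These 3 calls depended on single samples. That of Srsf9 was lost without Ltbr-/- replicate 1 or 3 or Ly5.1 replicate 1 or 2 (limma adjusted p up to 0.116), that of Srsf2 without Ltbr-/- replicate 1 or 3 or Ly5.1 replicate 1 or 3 (up to 0.0999), and that of Srsf6 without Ltbr-/- replicate 2 or 3 or Ly5.1 replicate 1 (up to 0.232). With quantile normalization Srsf9 stood at 0.24 and was no longer called (limma adjusted p = 0.0535). Srsf7, the SR gene with the highest mean, had 6558, 6180 and 6681 in Ltbr-/- and 7089, 6979 and 6654 in Ly5.1 samples. The groups overlapped at Ltbr-/- replicate 3 and Ly5.1 replicate 3, and its log2 fold change was −0.09 (limma adjusted p = 0.4; −0.30 and called with quantile normalization). Srsf1, Srsf3, Srsf5, Srsf10 and Srsf11 lay between −0.07 and −0.01. Srsf4 stood at −0.16, with Ly5.1 replicate 1 at 2021 far above the other samples, which ran from 1516 to 1704. Srsf12 was listed at 2.77 to 2.87 in all samples.

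The genes of the small ring proteins were then set beside those of the SF3 and SR proteins. The 16 tested genes of the Sm ring and of Lsm1 to Lsm7, Lsm10 and Lsm11 had a median log2 fold change of 0.15. With samples centred on ribosomal protein genes it was −0.73. Of these genes 4 were higher and 0 lower (limma, with 7 and 0 at an unadjusted p under 0.05). The share called higher was 25%, against 10.6% of all tested genes and 28.8% of those of up to 450 coding bases (25.4% without ribosomal protein genes). The 18 tested SF3 and SR genes had a median of −0.05, with 1 higher (5.56%) and 2 lower (11.1%, against 4.18% of all tested genes). The difference of the medians was 0.20 on either scale, since centring shifts all genes of a sample alike. Within each sample, the median deviation of the small genes from their own means minus that of the SF3 and SR genes was 0.11, 0.09 and 0.08 in Ltbr-/- and −0.14, −0.10 and −0.09 in Ly5.1 samples. Every Ltbr-/- sample was thus positive and every Ly5.1 sample negative. Deviations are from each gene's mean of these same 6 samples, so opposite signs of the groups largely restate the difference. Because the families were chosen with results of these data known, no test was made of this difference.

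**Figure D3:**
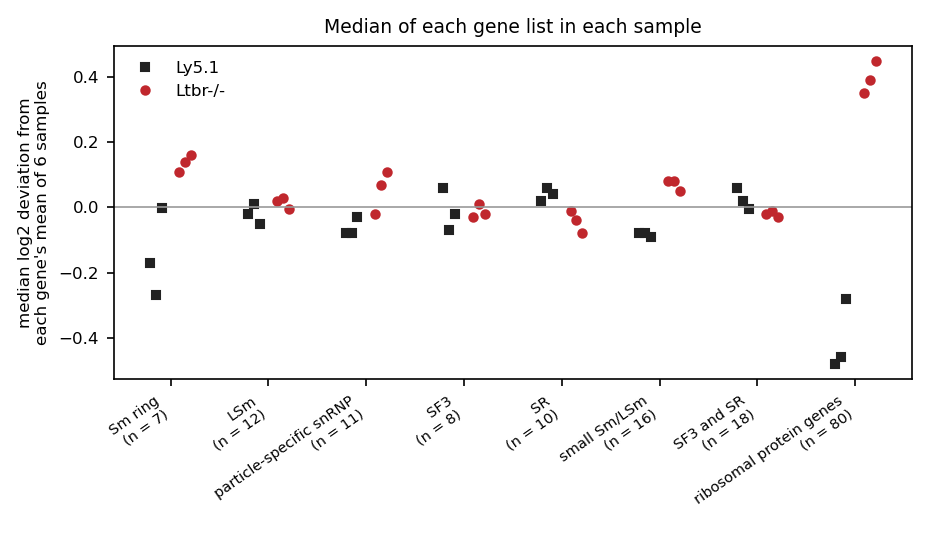
Median, over the genes of each family, of the log2 deviation from the gene's mean of 6 samples, shown for each Ly5.1 sample (black squares) and Ltbr-/- sample (red circles) on the deposited scale. In the small Sm/LSm genes all Ltbr-/- samples lie at 0.05 or above and all Ly5.1 samples at −0.08 or below; the sign reverses with centring on the ribosomal protein genes on the far right, which run from −0.48 to 0.45.

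The families also differed in length. The choice of members did not use it, but the small list left out Lsm12, Lsm14a (called lower) and Lsm14b as large, so size entered that split. With all Lsm symbols counted as small, the median of the small genes was 0.12 and the difference 0.17. The small Sm/LSm genes had a median coding length of 332 bases (228 to 1083), and the SF3 and SR genes one of 1144 bases (258 to 3912). Among all tested genes with a coding length, the median log2 fold change ran from 0.09 in 886 genes of up to 450 bases, over 0.04 in 2372 genes of 450 to 900 bases, to −0.10 in 1634 genes of more than 3000 bases. Leaving the ribosomal protein genes out, it was 0.08 in the shortest class. The share called higher was 28.8%, 16.9% and 2.75% in these 3 classes.

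Read against genes of like length, the 16 members of up to 450 coding bases had a median of 0.15 with 3 higher (18.8%, against 28.8% of all genes of that length). Without the ribosomal protein genes 25.4% of all genes of that length were higher. The 15 members of 450 to 900 bases had a median of 0.04 with 5 higher (33.3%, against 16.9%) and 1 lower (6.67%, against 1.64%). The 10 members of 900 to 1500 bases had 0 higher (against 9.69%) and 2 lower (20%, against 3.47%). Of the 4 members of 1500 to 3000 bases and the 3 longer ones 0 were called. Among all genes of these lengths 4.79% and 2.75% were higher, and 4.34% and 11.3% lower. Spearman's rho of log2 fold change with coding length was −0.41 across the 48 members and −0.37 across 11911 tested genes, given as a description, since genes of the same libraries are not independent. The members' log2 fold change also ran with their mean value (rho −0.28), and coding length ran with mean value (rho 0.62).

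A correction of each sample for transcript length and GC content left the small Sm/LSm genes at a median of 0.07 and the SF3 and SR genes at −0.03, a difference of 0.10. Snrpd2 (0.54, limma adjusted p = 3.55e-07), Snrpb2 (0.45) and Snrpb (0.23) stayed called as higher. Snrpc, Snrpa, Snrpf, Snrpg and Srsf9 were no longer called, with log2 fold changes of 0.26, 0.22, 0.23, 0.19 and 0.13 and adjusted p from 0.0505 to 0.295. Srsf2 (−0.33), Lsm14a (−0.24) and Srsf6 (−0.20) stayed called as lower, and Lsm7 (−0.27) and Lsm3 (−0.26) were called as well. Of all 12687 genes tested after this correction 2026 were called, 1112 of them higher.

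**Figure D4:**
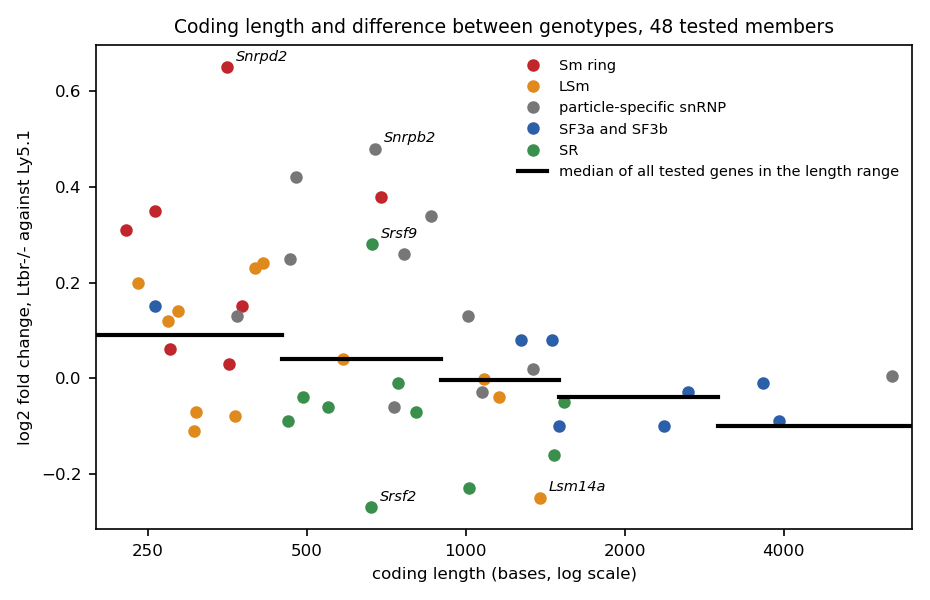
Log2 fold change, Ltbr-/- against Ly5.1 on the deposited scale, of the 48 tested members against coding length (bases, log axis), coloured by family. Black lines give the median of all tested genes in 5 length classes, from 0.09 in the shortest to −0.10 in the longest. Snrpd2 and Snrpb2 lie far above the line of their class and Srsf2 and Lsm14a below it.

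Levels can be compared between genes only per length, here as deposited signal per kilobase of a single transcript, the principal one where tagged. Whether that transcript is the form expressed in these cells was not tested, so such levels are approximate. On this scale Snrnp70 (4028 in Ly5.1 and 4098 in Ltbr-/- samples) and Snrpb (3280 and 4263) were the most abundant members, followed by Srsf7 (2874 and 2694) and Sf3b2 (2569 and 2508). Within the Sm ring the Ly5.1 levels per kilobase were uneven, with 3280 for Snrpb, 1231 for Snrpd2, 932 for Snrpd1 and 361 for Snrpf. The level of Snrpf is uncertain, since most of its transcript is shared with other genes, as given below. The ring itself holds its proteins in equal number. Srsf2, Srsf6 and Srsf9 had like levels in Ly5.1 samples, of 1378, 1462 and 1241, and stood at 1141, 1247 and 1501 in Ltbr-/- samples. The spread of these levels over samples is that of the values given above.

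Some members share sequence with other genes, which single reads of 76 bases cannot always separate. In transcripts cut into windows of that length, 85.1% of the windows of Snrpf were also found in transcripts of other genes, chiefly Ccdc38 on the opposite strand. The share was 32.8% in Srsf2 (Mettl23, opposite strand), 15.9% in Snrpg, 15.1% in Snrpc and 13.1% in Snrpa, and 8.77% in Snrpd2. Pseudogenes held most of the shared windows of Snrpg, Snrpc and Snrpd2. It was 0% in Snrpb, Snrpb2, Srsf9, Srsf6 and Lsm14a. Values of Snrpf, and among the uncalled genes those of Srsf4 (63.7%), Lsm7 (59.5%) and Sf3b4 (43.5%), are therefore uncertain. The library kit keeps the strand, but whether the counting used it is not given in the sources used here.

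Promoters are shown for called members, to set genes that rose beside a gene that fell. RefSeq promoters of GRCm38.p6 were at hand for 40 of the 48 tested members and 10 of the 11 called ones. Letters are given for the 3 of these 10 whose stretch of up to 250 bases before the gene holds no annotated exon. Capitals mark every match, on either strand, to CCAAT, to the GC box GGGCGG, to the ETS core CCGGAAG, to TATAAA, to the E-box CACGTG or to the CRE TGACGTCA. The stretches lie at chr7:27196272-27196521 (minus strand) for Snrpa, chr5:115326927-115327162 (plus strand) for Srsf9 and chr2:162931258-162931507 (plus strand) for Srsf6, and are written 5′ to 3′ along the gene.
Snrpa: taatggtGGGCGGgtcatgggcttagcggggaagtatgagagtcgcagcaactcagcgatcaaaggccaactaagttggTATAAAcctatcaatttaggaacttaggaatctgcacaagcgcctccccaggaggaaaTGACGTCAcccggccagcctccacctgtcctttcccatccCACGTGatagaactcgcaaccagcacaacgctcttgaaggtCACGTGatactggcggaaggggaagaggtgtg
Srsf9: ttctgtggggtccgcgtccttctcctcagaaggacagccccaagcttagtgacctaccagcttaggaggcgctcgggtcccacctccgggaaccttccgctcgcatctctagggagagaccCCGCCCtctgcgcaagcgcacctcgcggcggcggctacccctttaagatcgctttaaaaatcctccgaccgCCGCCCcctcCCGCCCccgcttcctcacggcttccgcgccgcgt
Srsf6: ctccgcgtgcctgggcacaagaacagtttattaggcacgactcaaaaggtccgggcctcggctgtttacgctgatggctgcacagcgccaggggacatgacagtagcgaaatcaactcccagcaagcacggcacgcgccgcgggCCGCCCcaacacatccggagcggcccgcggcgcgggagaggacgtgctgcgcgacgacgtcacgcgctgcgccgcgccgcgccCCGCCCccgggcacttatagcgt
Snrpa, higher in Ltbr-/- cells, held 1 GC box, 1 TATAAA, 1 CRE and 2 E-boxes. Srsf9, also higher, held 3 GC boxes and Srsf6, which was lower, held 2. The GC box was thus found in genes of either direction.

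Over all 40 members, the GC box stood in 27, against 58.3% of the promoters of 9179 tested genes and 32.9% of all 27025 promoters. CCGGAAG stood in 15 of 40, against 14% of the promoters of tested genes and 7.05% of all. It was present in 2 of 12 small Sm/LSm genes (Lsm5 and Snrpg) and in 9 of 16 SF3 and SR genes. CCAAT stood in 13 (36.8% of tested genes), TATAAA in 5 (6.05%), CACGTG in 1 (8.58%) and TGACGTCA in 2 (2.71%). A match says only that these letters are present, and shares rest on 1 promoter for each symbol, the first listed.

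Other splicing genes were taken from 10 lists of 149 genes, of which 143 were tested. Of these, 6 were higher, 4 were lower and 133 were not called (limma), beside 10.6% higher and 4.18% lower among all tested genes. An unadjusted p under 0.05 was found for 30 of the 143. Among all 13108 tested genes it was found for 2060 higher and 1495 lower genes. Their median log2 fold change was −0.0027 and 0 reached a fold of 1.5. The highest was Rbm8a, for the Y14 protein of the exon junction complex, with 1235, 1266 and 1315 in Ltbr-/- and 926, 933 and 997 in Ly5.1 samples. Both groups were tight and far apart, with a log2 fold change of 0.42 (limma adjusted p = 4.36e-04). Cwc15, of the Prp19-related proteins of the active spliceosome, stood at 0.36 (limma adjusted p = 0.00238) and the U2-associated Rbm17 at 0.27 (limma adjusted p = 0.03). The other higher genes encode hnRNP proteins: Pcbp2 at 0.25, Hnrnpc at 0.23 and Raly at 0.21. Lower genes were Srek1, an SR-related regulator, at −0.30 (limma adjusted p = 0.0225), the U2 helicase Ddx46 at −0.24, the SR-related Son at −0.21 and Acin1, of the exon junction complex periphery, at −0.20.

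Of these 10 calls, those of Rbm8a and Cwc15 held whichever sample was left out. The call of Hnrnpc held only without Ly5.1 replicate 2, and those of Raly and Acin1 held only without Ly5.1 replicate 3 (limma adjusted p otherwise up to 0.185, 0.152 and 0.218). Those of Pcbp2, Ddx46 and Son were lost without Ltbr-/- replicate 2 or 3 or Ly5.1 replicate 1 or 2 (up to 0.112, 0.187 and 0.18). That of Rbm17 was lost without Ltbr-/- replicate 2 or 3 or Ly5.1 replicate 1 (up to 0.184), and that of Srek1 without Ltbr-/- replicate 1 or 3 or Ly5.1 replicate 2 (up to 0.181). With quantile normalization Pcbp2, Hnrnpc, Raly and Rbm17 were no longer called, and with the correction for length and GC content Raly, Rbm17, Ddx46, Son and Acin1 were not.

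By group, 0 of 14 genes of the U5 and tri-snRNP proteins were called (limma; 2 at an unadjusted p under 0.05), from Eftud2 at −0.11 to Nhp2l1 at 0.24, a protein of U4. Likewise 0 of 15 helicases and step factors were called (1 at an unadjusted p under 0.05), from Cdc40 at −0.24 to Dhx38 at 0.17. In the SMN complex and its partners, which load the Sm ring onto snRNAs, 0 of 15 genes were called (2 at an unadjusted p under 0.05), from Wdr77 at −0.24 to Gemin6 at 0.20. The minor spliceosome genes ran from Armc7 at −0.08 to Rnpc3 at 0.21 with 0 of 7 called (1 at an unadjusted p under 0.05). Among the remaining groups, U1-associated genes ran from Prpf39 at −0.22 to Luc7l at 0.10, SR kinases and SR-related genes reached 0.16 in Clk3, and Prp19-related genes had their lowest value, −0.13, in Snw1. The lowest hnRNP gene was Hnrnpr at −0.23 and the lowest exon junction gene Upf3b at −0.22, neither of them called.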

How the data were processed

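Files of 6 samples were used, 3 of Ltbr-/- and 3 of Ly5.1 LT/ST-HSCs, grouped by the sample labels. The authors prepared stranded mRNA libraries, assembled single reads of 76 bases with SeqMan NGen, quantified genes with ArrayStar and deposited for each gene a signal that is 2 to the power of a regularized log; that form was read from the values. The submitters' processing notes name GRCm38, mm10 and DESeq2. The deposited files hold no counts, so depth per sample is unknown, counting intervals could not be given, and the precision is that of 3 replicates.

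The log2 of the signal was tested in limma 3.58.1 under R 4.3.3 (lmFit, then eBayes with trend) for 13108 of 26216 symbols, the upper 50% by mean; of a repeated symbol the row with the highest mean was kept. Calls had a Benjamini-Hochberg adjusted p under 0.05 over all tested genes; the study's further threshold was a fold of 1.5. For single genes an exact permutation test over samples, two-sided, was added. The fit was checked on simulated data. Members and lists were chosen with earlier results of these data known. Named by rule were Ltbr, members past both thresholds, the highest and lowest log2 fold change and the highest mean of each family, untested members, and the highest and lowest gene of each list of other splicing genes; further names were chosen after their values were seen. Lengths and shared windows came from GENCODE vM21, positions and promoters from RefSeq GRCm38.p6. As alternatives the fit was repeated with a block for the replicate number, with other filters, scalings, variance models and thresholds, after loess on transcript length and GC content, and without each sample.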

Additional observations from a re-analysis of the deposited data

How the results depend on the processing

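The files hold no counts, so that depth sets an unknown limit, and regularized logs understate differences of weakly expressed genes. Calls of members moved most with scaling. Centring on ribosomal protein genes called 47 members (41 with a fold of at least 1.5), 0 higher and 47 lower. Calls in the deposited scale were 8 higher and 3 lower, and under centring 0 were higher even at an unadjusted p under 0.05. Of all 13108 tested genes centring called 12830, 19 of them higher. It set the small Sm/LSm genes at −0.73 and the SF3 and SR genes at −0.93. Quantile normalization gave 7 higher and 8 lower calls, with medians of 0.12 and −0.17 and a difference of 0.29. It called 2160 of all 13108 tested genes, 1246 of them higher. Without moderation of the variances limma's model called 0 members, 0 higher and 0 lower, and 0 with a fold of at least 1.5. An unadjusted p under 0.05 was found for 12. Of all 13108 tested genes 573 were called, 480 of them higher. Correction for length and GC content left 3 higher and 5 lower calls and 0 with a fold of at least 1.5. The medians were 0.07 and −0.03, with a difference of 0.10. Of all 12687 genes tested in that way 2026 were called, 1112 of them higher. Without a filter on low values 1 lower call was left, and 1539 of all 17182 genes were called, 1184 of them higher. A fold threshold of 1.2 gave 9 members instead of 1. With the upper 25% of symbols by mean, which leaves fewer genes, the small genes had a median of 0.20 and the difference was 0.24. With all Lsm symbols counted as small these were 0.12 and 0.17, and, chosen after seeing the data, without members sharing over 10% of their windows 0.18 and 0.23. The causes were not tested beyond what each alternative itself does.

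Leaving out each sample in turn gave 5 to 10 members called, 5 to 8 of them higher and 0 to 2 lower. Over all 13108 tested genes 1253 to 1999 were called, 1004 to 1400 of them higher. The small Sm/LSm median then ran from 0.13 to 0.20, the SF3 and SR median from −0.08 to −0.04 and the difference from 0.18 to 0.24.

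Under centring on ribosomal protein genes the named genes above 0 changed sign: Snrpd2 (−0.22), Snrpb2 (−0.40), Snrpc (−0.46), Snrpb (−0.50), Snrpf (−0.53), Snrpa (−0.53), Snrpg (−0.56), Srsf9 (−0.60), Lsm4 (−0.64), Sf3b5 (−0.73), Sf3a2 (−0.79), Snrpd1 (−0.85), Snrnp70 (−0.85), Sf3b6 (−0.47), Rbm8a (−0.46), Cwc15 (−0.52), Rbm17 (−0.61), Pcbp2 (−0.62), Nhp2l1 (−0.63), Hnrnpc (−0.65), Raly (−0.66), Rnpc3 (−0.67), Gemin6 (−0.68), Dhx38 (−0.71), Clk3 (−0.72) and Luc7l (−0.78), where the median of all tested genes was −0.89. With quantile normalization Snrnp70 (−0.22) and Pcbp2 (−0.0015) changed sign, and Snrnp70 was then called lower. Of uncalled genes near 0, Snrpd1 lay below it with the length and GC correction (−0.10) and without Ltbr-/- or Ly5.1 replicate 1 (−0.07 and −0.05), Snrnp70 with that correction (−0.07) and without Ltbr-/- replicate 3 (−0.03), and Sf3a2 without Ly5.1 replicate 2 (−0.02).

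Both genotypes were sorted from mixed chimeras, but the labels do not say that a replicate number marks the same mice, and samples were not taken as paired. The correlations of same-numbered samples' deviations from the group means were 0.031, −0.005 and 0.090. With the replicate number as a block 12 members were called, 9 higher and 3 lower. This added Snrpa1 (adjusted p = 0.0333 from limma), and the 11 calls given above remained. Of all 13108 tested genes 1936 were called under the block, 1372 of them higher. Not every sample correlated best with its own number. The named genes refitted under the block, Sf3b6 included, otherwise kept their calls.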
